A study of Mus musculus with 30 samples.

Results

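The genes described here are the nuclear genes for subunits of oxidative phosphorylation in fluorescence-sorted cells of the mouse medial prefrontal cortex (mPFC). Members were taken by symbol: those starting with Ndufa, Ndufb, Ndufc, Ndufs, Ndufv, Uqcr, Cox4 to Cox8 or Atp5, together with Sdha, Sdhb, Sdhc and Sdhd. Ndufaf symbols and symbols with a hyphen were left out. Of 23993 genes, 85 were members, of which 38 belonged by symbol to complex I, 4 to complex II, 8 to complex III, 18 to complex IV and 17 to complex V. The symbol rule also takes in some genes that are not plain structural subunits, such as Cox7a2l, a factor that joins complexes III and IV, and Atp5s and Atp5sl, which now carry the names Dmac2l and Dmac2. Ndufa4 was counted with complex I by its symbol, although its protein is now placed in complex IV, and Cyc1, a subunit of complex III, was not taken by the rule.

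The study sorted tdTomato-tagged somatostatin (Sst) and parvalbumin (Pvalb) interneurons and measured their RNA by sequencing, in order to compare the sexes, the interneuron types and mice with and without chronic unpredictable stress (CUS). Mice carried Sst-Cre or Pvalb-Cre and the Cre-dependent tdTomato reporter Ai9 and were 6 to 12 weeks old, so the tag marks any cell in which that Cre has been active. The table held 24 libraries: 7 of Sst female controls, 7 of Sst male controls, 3 of Sst males after 14 days of CUS and 7 of Pvalb male controls. Another 6 labelled samples, from Pvalb female controls and from Sst and Pvalb females after CUS, were not analysed here. The titles were of 2 kinds. Those here called numbered, such as SST3-M or PV4-M, covered 18 libraries, and those here called dated, such as SS04031R, covered 6, namely 3 Sst male controls and all 3 CUS libraries. What the digits of the dated titles stand for is not given in the sources used here.

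Oxidative phosphorylation is carried out in the inner mitochondrial membrane. Complex I passes electrons from NADH, and complex II from succinate, to ubiquinone. Complex III hands them on to cytochrome c, complex IV passes them to oxygen, and complex V, the ATP synthase, uses the resulting proton gradient to make ATP. Most subunits are encoded in the nucleus and a small core in the mitochondrial genome, and in the cortex fast-spiking Pvalb interneurons are known for their high demand for ATP.

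Several libraries stood apart, and this bears on every comparison. The libraries SST0-M and SST1-M differed by an SD of only 0.0212 in log2 ratio across genes, and PV0-M and PV2-M by 0.0170, so each pair was averaged and counted as 1 sample, which left 22 samples. Microglia markers summed to between 2702 and 8603 FPKM (fragments per kilobase of transcript, scaled per library, the deposited unit) over 12 genes. The 10 interneuron markers summed to between 4.29 and 70.5 FPKM, and Sst itself was 0 to 49.3 FPKM in the Sst libraries and 12.3 to 30.5 FPKM in the Pvalb libraries. The values therefore describe the sorted samples and not interneurons alone, and the part of other cell types in them was not tested. Xist, a transcript of the inactive X chromosome, was 300.2 to 333 FPKM in 3 Pvalb libraries labelled male (PV1-M, PV4-M, PV5-M), 0.439 to 6.64 FPKM in the other 4 and 479 to 644 FPKM in the females. Small nucleolar RNA genes held 53.5% to 75.7% of the total FPKM in the dated libraries and 1.87% to 8.29% in the numbered ones.

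Promoters of these genes are textbook targets of the transcription factor NRF-1, so RefSeq promoters (assembly GRCm38.p6, from 250 bases before to 50 bases after the start of the gene) were searched on both strands for its core letters GCATGCGC. A promoter was at hand for 70 of the 85 members. The letters were found in 10 of these 70 members (14.3%) and in 3.05% of the 27025 genes with a promoter. The 10 were Sdhb in complex II, Ndufa6, Ndufa8 and Ndufa11 in complex I, Uqcr11 and Uqcrc1 in complex III, Cox6a1 in complex IV, and Atp5g2, Atp5k and Atp5l in complex V. For the ETS letters CCGGAAGT the shares were 7.14% of members and 4.31% of genes, and for the YY1 motif they were 8.57% and 0.995%. A match is a run of letters and not a measured binding site. The stretches below show the match, in capitals, with 30 bases on each side in 5 members from 4 complexes, on the strand of the gene. Of the 10 members with the letters, Cox6a1 passed 1 of the comparisons described further on and the others passed none. The 5 were picked for display after the values were seen, and the part of the letters in the differences was not tested. In Ndufa11, Cox6a1 and Atp5k the match overlaps its own reverse complement.
Sdhb, chr4:140961187-140961254, plus strand, match starting 54 bases before the start: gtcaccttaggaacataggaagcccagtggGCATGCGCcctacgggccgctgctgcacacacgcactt
Ndufa6, chr15:82354337-82354404, minus strand, 83 bases before the start: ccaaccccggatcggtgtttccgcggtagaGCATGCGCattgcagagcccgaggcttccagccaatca
Ndufa11, chr17:56717674-56717741, plus strand, 58 bases before the start: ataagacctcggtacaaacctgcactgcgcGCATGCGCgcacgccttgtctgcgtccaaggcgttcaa
Cox6a1, chr5:115349081-115349148, minus strand, 160 bases before the start: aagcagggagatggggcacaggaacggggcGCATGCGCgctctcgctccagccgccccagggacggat
Atp5k, chr5:108434410-108434477, minus strand, 48 bases before the start: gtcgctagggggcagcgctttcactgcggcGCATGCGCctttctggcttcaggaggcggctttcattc

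Subunit genes were expressed at high and unequal levels. The median of the members' mean levels was 37.3 FPKM, and 76 of the 85 members were above 0.4 FPKM in all 24 libraries. By complex the medians were 33.1 FPKM for complex I, 45.8 for complex II, 51.2 for complex III, 37.3 for complex IV and 67.4 for complex V. Atp5b, the catalytic beta subunit of the ATP synthase, had the highest mean of all members, 193 FPKM, and stayed within 132 to 251 FPKM across all 24 libraries. Other leading members of complex V were Atp5h, the peripheral stalk subunit d (mean 160 FPKM, range 125 to 250), and Atp5a1, the alpha subunit (mean 118 FPKM, range 83.1 to 325). In complex IV the leading members were Cox6a1 (mean 192 FPKM), Cox8a (mean 187 FPKM) and Cox4i1 (mean 167 FPKM), all nuclear-encoded subunits around the catalytic core. In complex III they were Uqcrh, the hinge protein (mean 109 FPKM), Uqcr10 (mean 90.0 FPKM) and Uqcrb (mean 73.9 FPKM). In complex I they were Ndufb9 (mean 110 FPKM), Ndufa3 (mean 86.6 FPKM) and Ndufa4 (mean 84.7 FPKM). These means pool both kinds of title, and the order was not the same in the dated controls, where Ndufb4 (mean 108 FPKM) and Ndufb10 (104 FPKM) led complex I, Uqcrb (140 FPKM) complex III and Cox5b (126 FPKM) complex IV, whereas Atp5b (199 FPKM) and Atp5h (165 FPKM) again led complex V.

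**Figure D1:**
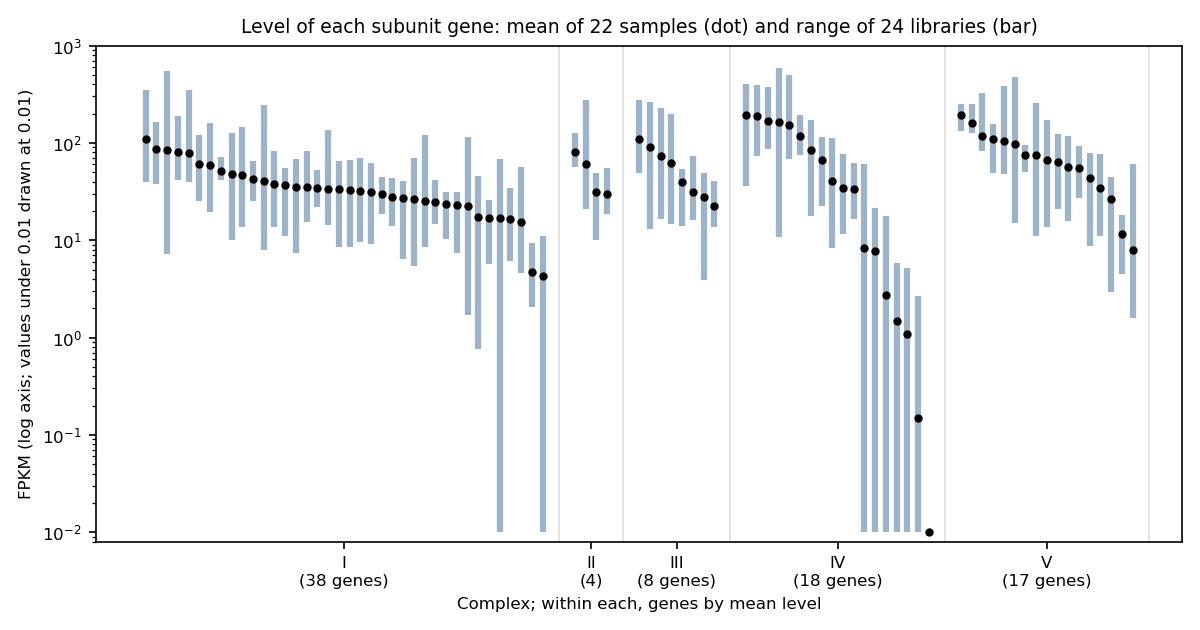
Level of each of the 85 members in FPKM on a log axis, grouped by complex and ordered by mean within it. Dots are means over 22 samples and bars run from the lowest to the highest of the 24 libraries, and values under 0.01 FPKM are drawn at 0.01. In complex IV, 7 genes at the right reach down to 0 in some library, whereas every gene of complexes II, III and V is above 0.4 FPKM throughout.

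Where complex IV has a widely expressed and a tissue-restricted form of a subunit, the former led. Cox4i1 was never below 86.8 FPKM, and Cox4i2, an isoform known from lung and oxygen-sensing cells, was listed at 0 in 2 libraries and reached 60.9 FPKM. Cox6a1 was never below 36.1 FPKM, and Cox6a2, an isoform known from heart and skeletal muscle, ran from 0 to 5.79 FPKM. Cox6b1 was never below 22.6 FPKM, and Cox6b2, the testis form, ran from 0 to 21.4 FPKM. In these 3 pairs the highest library of the restricted form was thus below the lowest library of the other. Cox7a2 had a mean of 34.0 FPKM and Cox7a2l of 85.2 FPKM, while Cox7a1, the muscle form, was listed at 0 in 10 libraries and reached 17.9 FPKM. Cox7b had a mean of 33.5 FPKM, and Cox7b2 was listed at 0 in 13 libraries and reached 5.12 FPKM. Cox8b, another muscle form, was listed at 0 in 22 of 24 libraries, and Cox8c, the testis form, in all 24. Cox5a and Cox5b are different subunits, not isoforms, and had means of 40.6 and 118 FPKM. Of the 3 genes for the c-ring subunit of the ATP synthase, which encode the same mature protein, Atp5g3 led with 97.5 FPKM, followed by Atp5g2 with 43.5 and Atp5g1 with 26.8 FPKM.

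The succinate dehydrogenase genes of complex II were unequal. Sdha, the flavoprotein, had a mean of 80.7 FPKM (range 57.1 to 126), Sdhc, a membrane anchor, 60.3 FPKM (range 21.1 to 275), Sdhd, the other anchor, 31.3 FPKM (range 10.0 to 49.5) and Sdhb, the iron-sulfur subunit, 29.5 FPKM (range 18.5 to 55.5). The ranges of Sdhb and Sdhd overlap, and their means differ by less than the spread between libraries. Sdhc was above Sdhb in all 18 numbered libraries and below it in all 6 dated ones.

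Ndufs5, an accessory subunit of complex I, was the least even of the members that were never listed at 0. It was listed between 0.000877 and 0.00173 FPKM in all 7 Pvalb libraries, and at similar values in SST0-M, SST1-M, SST-F, SST1-F, SST3-F and SST4-F. It stood at 8.66 FPKM in SST2-F, 12.1 in SST5-F, 15.2 in SST6-F, 4.32 in SST3-M and 19.1 in SST4-M. In the dated libraries it was 10.1 FPKM in SS04031R and 48.4 to 68.9 FPKM in the other 5. Values this close to 0 for a subunit that complex I needs can be failed estimates, so no fold change is read from them. Processed pseudogenes are common for genes of this kind, and how fragments shared with such copies were assigned is not given in the sources used here, so levels of single short members carry that uncertainty.

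The 85 members together summed to between 2845 and 10155 FPKM. Sst female controls were tight, from 4274 to 4624 FPKM in 7 libraries, and Pvalb male controls ranged from 4818 to 5795 FPKM. The numbered Sst male controls split: SST3-M and SST4-M held 4438 and 3876 FPKM, whereas the near-identical SST0-M and SST1-M held 10140 and 10155 FPKM. In the dated libraries the sum was 2845, 3529 and 3595 FPKM in controls and 3642, 3715 and 3724 FPKM after CUS. All 6 dated libraries were thus below every numbered library.

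By complex this gap was not even. Complex IV genes summed to 513 to 716 FPKM in the 6 dated libraries and to 996 to 2412 FPKM in the 18 numbered ones, and complex II genes to 124 to 143 FPKM against 178 to 498 FPKM, with no overlap in either. Complex I sums overlapped, at 1009 to 1345 FPKM against 1253 to 3403 FPKM, as did complex III sums, at 317 to 443 FPKM against 332 to 1126 FPKM. Complex V sums also overlapped slightly, at 870 to 1133 FPKM against 1103 to 2718 FPKM. Among the numbered groups, the complex IV sum was 1814 ± 295 FPKM in Pvalb samples (SD, n = 6), 1196 ± 132 FPKM in Sst females (SD, n = 7) and 1529 ± 769 FPKM in Sst males (SD, n = 3), where SST0-M and SST1-M, at 2412 and 2410 FPKM, exceeded every Pvalb library.

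**Figure D2:**
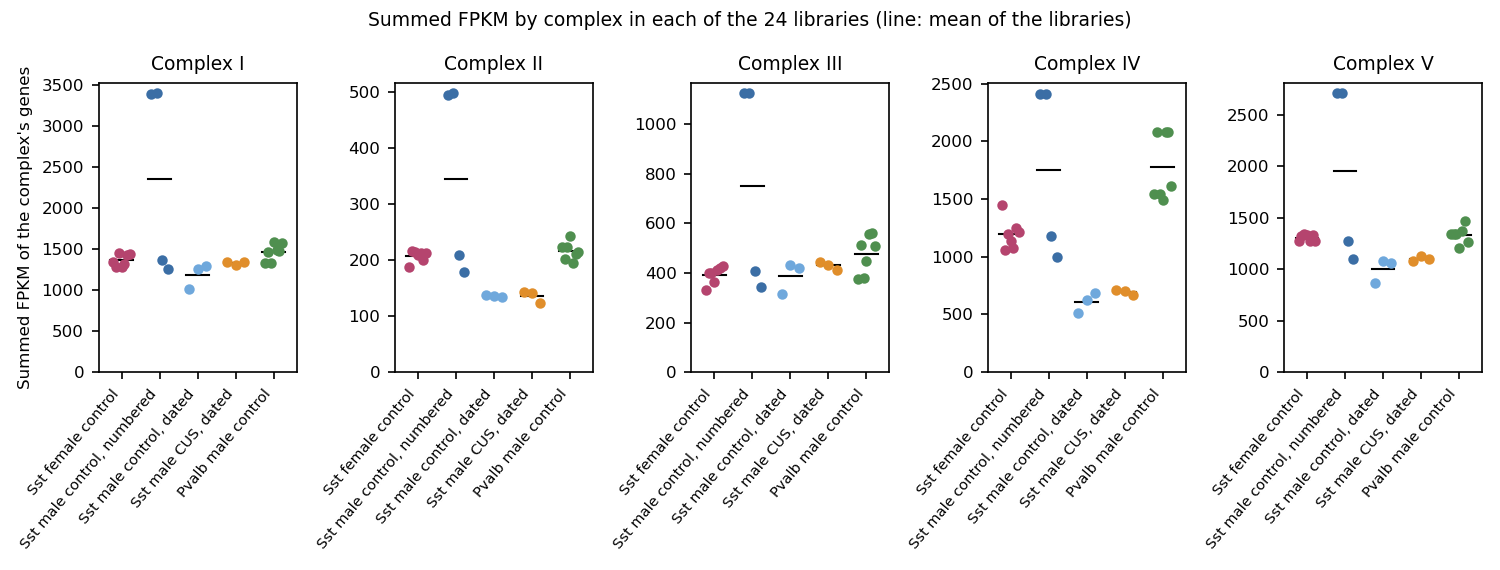
Summed FPKM of the members of each complex in each of the 24 libraries, by group, with a line at the mean of the libraries; dated and numbered are the kinds of library title. SST0-M and SST1-M lie at the top of every panel, and the 6 dated libraries lie lowest for complexes II and IV.

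Sex was compared in Sst controls between 7 female samples and 3 numbered male samples, with limma on log2(FPKM + 1) and Benjamini-Hochberg adjustment over 14443 genes. Of 83 members tested, 1 passed an adjusted p of 0.05, against 3.41% of all genes tested (1.75% higher and 1.66% lower in females). This was Ndufa4l2, a paralog of Ndufa4 known to be induced in low oxygen, which was higher in females. It ranged from 3.04 to 10.95 FPKM in females with a median of 6.94, and was 2.50 FPKM in SST3-M, 0.244 in SST4-M and listed at 0 in the averaged SST0-M and SST1-M. Every female sample was above every numbered male sample, and the difference was 2.20 on the log2 scale (SE 0.41, adjusted p = 0.0209, limma). The male controls with dated titles, which were not in this comparison, reached into the female range with 5.13 FPKM in SST04241LL and 8.48 in SST040241L, and SS04031R was listed at 0. Against those 3 libraries the difference was 0.95 (adjusted p = 0.197, limma).

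Of 6 endothelial markers 2 passed the threshold, both higher in females, and all 6 had a positive difference on the log2 scale. Mean FPKM was nonetheless higher in numbered males for Esam (17.3 against 10.5) and Pecam1 (15.7 against 14.3). The 6 summed to 61.9 to 120 FPKM in females and to 23.4 to 128 FPKM in numbered males. None was listed at 0 in these libraries. SST0-M, where Ndufa4l2 was listed at 0, had a sum of 127 FPKM, above every female library. Of 12 microglia markers 11 had a negative difference, and 3 of these passed the threshold (C1qb, Csf1r and Cx3cr1). The 12 summed to 3354 to 6295 FPKM in females and to 5270 to 8559 FPKM in numbered males. The part of these cells in the Ndufa4l2 difference was not tested. Without SST2-F or without SST5-F its adjusted p was 0.0504 and 0.0543 (limma), and no member was called.

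The remaining members gave no call between the sexes. Unadjusted p-values were below 0.05 for 16 members, against 24.3% of all genes. The largest negative differences were those of Atp5s (-1.50, adjusted p = 0.0794, limma), Cox7b2, Ndufb6, Uqcrb and Cox4i2, between -1.25 and -0.86 for the last 4. The largest positive ones after Ndufa4l2 were those of Cox6b2 (1.39), Uqcrc1 (0.91), Ndufa1 (0.78) and Ndufs1 (0.73). Groups did not overlap for 2 members that were higher and 4 that were lower, while 9.73% of all genes did not overlap (5.26% higher, 4.48% lower). The median difference was -0.22 over the members and 0.05 over all genes, with 25 members positive and 58 negative. That sign rested on the averaged SST0-M and SST1-M: without them the median was 0.07, with 53 members positive and 30 negative. It also changed with scaling, to 0.05 over the members after quantile normalization, with 45 positive and 38 negative, and to 0.03 when libraries were scaled to the same sum, a scaling that moved the median of all genes to 0.25. The 3 members on chromosome X, Ndufa1, Ndufb11 and Cox7b, differed by 0.78, -0.13 and -0.50, with adjusted p of 0.505, 0.664 and 0.135 (limma).

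The effect of CUS was compared within the dated libraries, 3 CUS against 3 control Sst males. No member passed, and 0.00705% of the 14186 genes did, which is 1 gene. Unadjusted p-values were below 0.05 for 6 members, against 6.74% of all genes, and the smallest adjusted p of a member was 0.647 (limma). Ndufb6, an accessory subunit of complex I, had the largest positive difference, with 11.7, 13.6 and 10.6 FPKM after CUS and 6.40, 1.71 and 6.83 FPKM in controls. All 3 CUS libraries were above all 3 controls, and the difference was 1.26 on the log2 scale (SE 0.40, adjusted p = 0.647, limma). Atp5s had the largest negative one, with 1.58, 1.91 and 2.74 FPKM after CUS and 7.21, 3.39 and 2.93 FPKM in controls, a difference of -0.78 (SE 0.32, adjusted p = 0.647, limma).

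Next among the positive differences were Cox4i2 (1.23), Cox6b2 (1.22), Ndufc1 (1.17) and Cox7a1 (1.11), for which the groups overlapped. Next among the negative ones were Cox6a2 (-0.24), Cox6b1 (-0.23), Ndufs8 (-0.19) and Ndufa2 (-0.15). Among abundant catalytic subunits the groups overlapped: Atp5b was 220, 206 and 197 FPKM after CUS and 167, 210 and 219 FPKM in controls, and Sdha was 63.9, 64.6 and 57.1 FPKM after CUS and 73.2, 67.4 and 64.5 FPKM in controls.

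Across the members 61 differences were positive and 22 negative, with a median of 0.16 against 0.00 over all genes. The groups did not overlap for 10 members that were higher and 2 that were lower, beside 18.7% of all genes (9.33% higher, 9.39% lower). One control decided much of this median: without SS04031R it was 0.07, with 48 members positive and 35 negative, and still no member passed. The digits in the title of SS04031R are also in those of all 3 CUS libraries and not in those of the other 2 controls, so what they stand for is partly confounded with CUS. SS04031R had 7481 FPKM of microglia markers against 3389 and 3719 in the other 2 controls and 2702 to 3126 after CUS, and 16.3 FPKM of endothelial markers against 101 and 112 in those controls and 123 to 202 after CUS. Oligodendrocyte markers summed to 391 to 1284 FPKM in controls and 1600 to 1967 FPKM after CUS, with no endothelial or oligodendrocyte marker at 0. The part of these cells in the members' differences was not tested. Against the numbered male controls instead, 17 members were called, 3 higher and 14 lower, beside 16.1% of all genes, but there stress and the kind of title cannot be told apart.

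Sst and Pvalb controls were compared among the numbered libraries, 10 Sst samples of both sexes against 6 Pvalb samples. Of 83 members tested, 4 passed, 1 higher and 3 lower in Sst, against 10.2% of the 14483 genes tested (4.87% higher, 5.34% lower). All 3 that were lower belong to complex IV: Cox8a, Cox4i1 and Cox6b1. The 1 that was higher was Ndufs3, a core subunit of the complex I arm that carries the iron-sulfur clusters.

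Cox8a, the widely expressed form of a small complex IV subunit, was 108 to 208 FPKM in Sst females with a median of 148, 157 FPKM in SST3-M, 129 in SST4-M and 310 in the averaged SST0-M and SST1-M, and it was 218 to 397 FPKM in Pvalb samples with a median of 329. The Sst samples thus lay below all Pvalb samples except for SST0-M and SST1-M. The difference was -0.94 on the log2 scale (SE 0.21, adjusted p = 0.0108, limma).

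Cox4i1, the subunit through which complex IV is regulated by ATP, was 123 to 174 FPKM in Sst females with a median of 151, and 163, 105 and 137 FPKM in SST3-M, SST4-M and the averaged pair. Among Pvalb libraries it was 344 FPKM in PV1-M, 355 in PV4-M and 376 in PV5-M, 208 and 216 FPKM in PV3-M and PV6-M, and 115 FPKM in both PV0-M and PV2-M. The last pair lay within the Sst range and the other 5 above it. The difference was -0.79 (SE 0.22, adjusted p = 0.0283, limma). Cox6b1 was 70.0 ± 11.4 FPKM in Sst (SD, n = 10) and 97.7 ± 15.5 FPKM in Pvalb (SD, n = 6), with a difference of -0.48 (adjusted p = 0.0429, limma). Ndufs3 was 83.1 ± 27.3 FPKM in Sst and 53.9 ± 14.2 FPKM in Pvalb, a difference of 0.60 (adjusted p = 0.0486, limma).

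**Figure D3:**
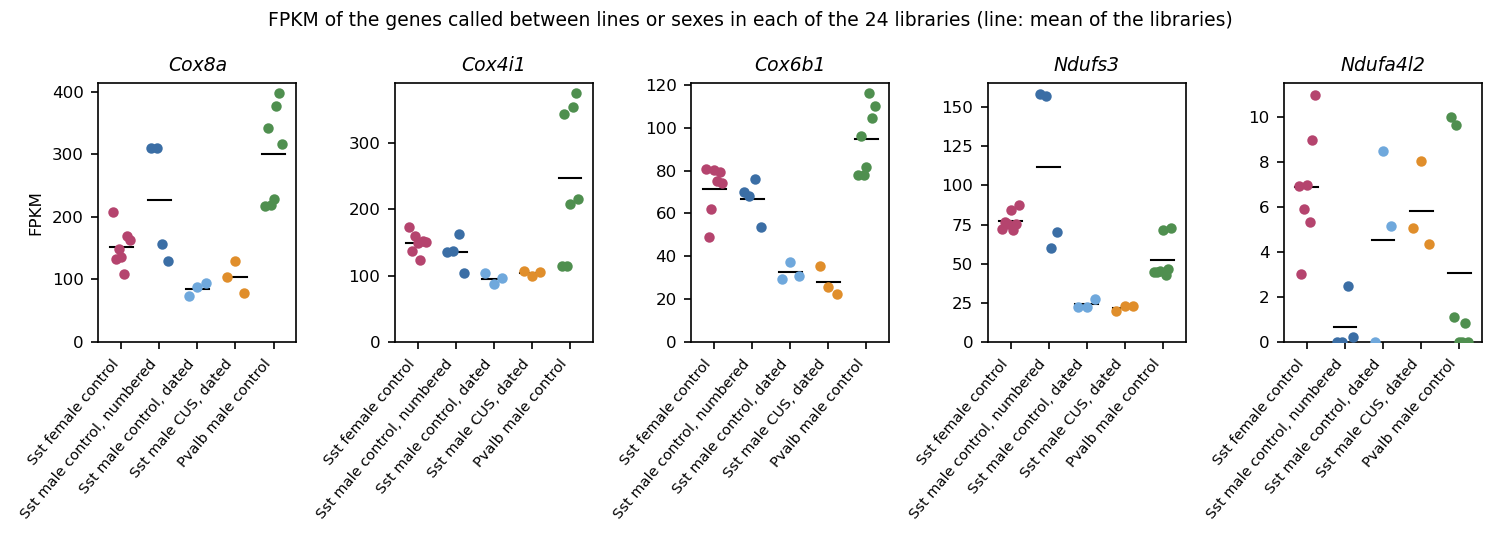
FPKM of the 4 members called between Sst and Pvalb controls and of Ndufa4l2, called between the sexes, in each of the 24 libraries, with a line at the mean of the libraries of a group. Cox8a, Cox4i1 and Cox6b1 are highest in Pvalb libraries with SST0-M and SST1-M at about 310 FPKM for Cox8a, and PV0-M and PV2-M at 115 FPKM for Cox4i1 and 77.7 FPKM for Cox6b1, as exceptions. Ndufs3 is highest in SST0-M and SST1-M, at 157 and 158 FPKM.

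These calls were not even over libraries. Without the 3 libraries labelled male with high Xist, no member passed, and Cox8a and Cox4i1 differed by -0.65 and -0.26 (adjusted p = 0.296 and 0.603, limma); only 0.0622% of all genes passed there. Cox8a was called without any single sample, Cox4i1 without any but PV1-M, PV4-M or PV5-M, each of which left Cox8a alone. Removing any one of SST1-F to SST6-F, or SST4-M, left Cox8a and Cox4i1. Removing the averaged SST0-M and SST1-M gave 12 members, beside 18.1% of all genes, and removing the averaged PV0-M and PV2-M also gave 12, beside 19.9%. With numbered Sst males only the count was 0, beside 0.0912% of all genes, and with Sst females only it was 15, 5 higher and 10 lower, beside 25.1%. Quantile normalization also gave 4 calls, but with 3 higher (Atp5j, Ndufc2 and Ndufs3) and 1 lower (Cox8a), and scaling to the same sum gave 3 higher and 2 lower, with median differences of 0.03 and 0.02 over the members. Because the Sst group is mostly female and the Pvalb group is labelled male, interneuron type and sex are partly confounded here.

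By complex the differences were unequal. The median difference was -0.05 over all members and 0.01 over all genes, and it was -0.46 in complex IV, -0.30 in complex III, -0.01 in complex I, 0.04 in complex II and 0.03 in complex V. Unadjusted p-values were below 0.05 for 17 members, 7 of them in complex IV, against 27.6% of all genes, and no member had groups without overlap, against 1.44% of all genes (0.663% higher, 0.78% lower). Large differences short of the threshold were those of Cox6b2 (-0.90), Cox6a2 (-0.75) and Ndufa2 (-0.67) on the lower side and, Ndufs5 left aside, of Ndufa4l2 (1.35), Cox4i2 (1.28), Cox7a1 (0.93) and Atp5j (0.79) on the higher side. Endothelial markers had a positive difference for all 6 genes, 5 of them past the threshold. They summed to 23.4 to 128 FPKM in numbered Sst libraries and 10.5 to 58.3 FPKM in Pvalb libraries. Cldn5 or Esam was listed at 0 in 4 of the latter. Microglia markers had a lower mean in Sst for all 12 genes, 2 of them past the threshold, and summed to 7482 to 8603 FPKM in Pvalb libraries, 3354 to 6295 FPKM in Sst females and 5270 to 8559 FPKM in numbered Sst males. Neuronal markers had a negative difference for 7 of 8 genes, 2 of them past the threshold. Their sums were 88.1 to 280 FPKM in Sst females, 104 to 158 in numbered Sst males and 46.8 to 344 in Pvalb libraries. Of 9 interneuron markers tested, 7 had a negative difference, and 1 passed as lower. Sst had means of 23.3 FPKM in Pvalb samples, 15.5 in Sst females and 2.37 in numbered Sst males. Pvalb was 0.882 to 5.07 FPKM in Pvalb libraries, 0 to 1.93 in Sst females and 0 to 0.544 in numbered Sst males. Astrocyte markers were positive for 5 of 7 genes, 1 of them called. Oligodendrocyte markers were positive for 5 of 6, and the other was called lower. The part of these cells in the members' differences was not tested.

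Sst male controls with dated titles were set against those with numbered titles, 3 samples each, to see how far the members move between libraries of the same line, sex and condition. Of 83 members 10 passed, all of them lower in the dated libraries, against 4.11% of the 14230 genes tested (1.81% higher, 2.3% lower). The 10 came from all 5 complexes: Ndufb6 and Ndufs3 from complex I, Sdhd from II, Uqcr10 from III, Cox7c, Cox7a2l, Cox6a1 and Cox7a2 from IV, and Atp5g1 and Atp5e from V.

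Cox7c, a small membrane subunit of complex IV, was 21.7, 16.5 and 13.5 FPKM in SS04031R, SST040241L and SST04241LL and 175, 155 and 590 FPKM in SST3-M, SST4-M and the averaged SST0-M and SST1-M. Its difference was the largest of all members, -3.82 on the log2 scale (SE 0.52, adjusted p = 0.0147, limma). Atp5g1 was 4.44, 3.89 and 2.93 FPKM against 41.8, 30.6 and 36.2 FPKM, a difference of -2.97 (SE 0.28, adjusted p = 0.00357, limma). The numbered samples of Atp5g1 were close together, SST0-M and SST1-M included. Cox6a1, whose promoter stretch is shown above, was 38.5, 43.4 and 42.8 FPKM against 169, 144 and 318 FPKM, a difference of -2.23 (adjusted p = 0.0226, limma).

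Uqcr10, a small accessory subunit of complex III, was 13.6, 25.5 and 13.1 FPKM in the dated controls and 70.3, 85.2 and 260 FPKM in the numbered ones, with a difference of -2.73 (adjusted p = 0.0368, limma). Sdhd was 10.99, 12.6 and 13.3 FPKM against 45.5, 35.5 and 40.9 FPKM, with a difference of -1.65 (adjusted p = 0.0184, limma). Differences of the other called members were -3.06 for Ndufb6, -2.96 for Atp5e, the epsilon subunit of the ATP synthase, -2.33 for Cox7a2l, -1.83 for Ndufs3 and -1.45 for Cox7a2. Ndufa4 differed by -3.18 without passing (adjusted p = 0.0776, limma), with 231 ± 275 FPKM in the numbered samples (SD, n = 3).

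Not all members were low in the dated controls. Ndufs5, which had the largest positive difference, is left aside because of its values near 0 in SST0-M and SST1-M. Ndufb10, a complex I subunit, was 94.2, 97.4 and 120 FPKM in SS04031R, SST040241L and SST04241LL and 49.8, 39.6 and 25.9 FPKM in SST3-M, SST4-M and the averaged pair, a difference of 1.45 that just missed the threshold (adjusted p = 0.05002, limma). Uqcrc1, a core protein of complex III, was 36.4, 44.9 and 48.9 FPKM against 23.5, 12.5 and 4.05 FPKM, a difference of 1.89 (adjusted p = 0.0921, limma). Atp5f1, the peripheral stalk subunit b, was 72.0, 67.1 and 76.3 FPKM against 23.1, 13.3 and 63.0 FPKM, a difference of 1.38 (adjusted p = 0.166, limma). These 3 members had every dated control above every numbered sample, whereas Uqcrb (1.29) overlapped. Atp5b lay at 167, 210 and 219 FPKM against 188, 176 and 193 FPKM, so the member with the highest mean level did not separate the sets.

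**Figure D4:**
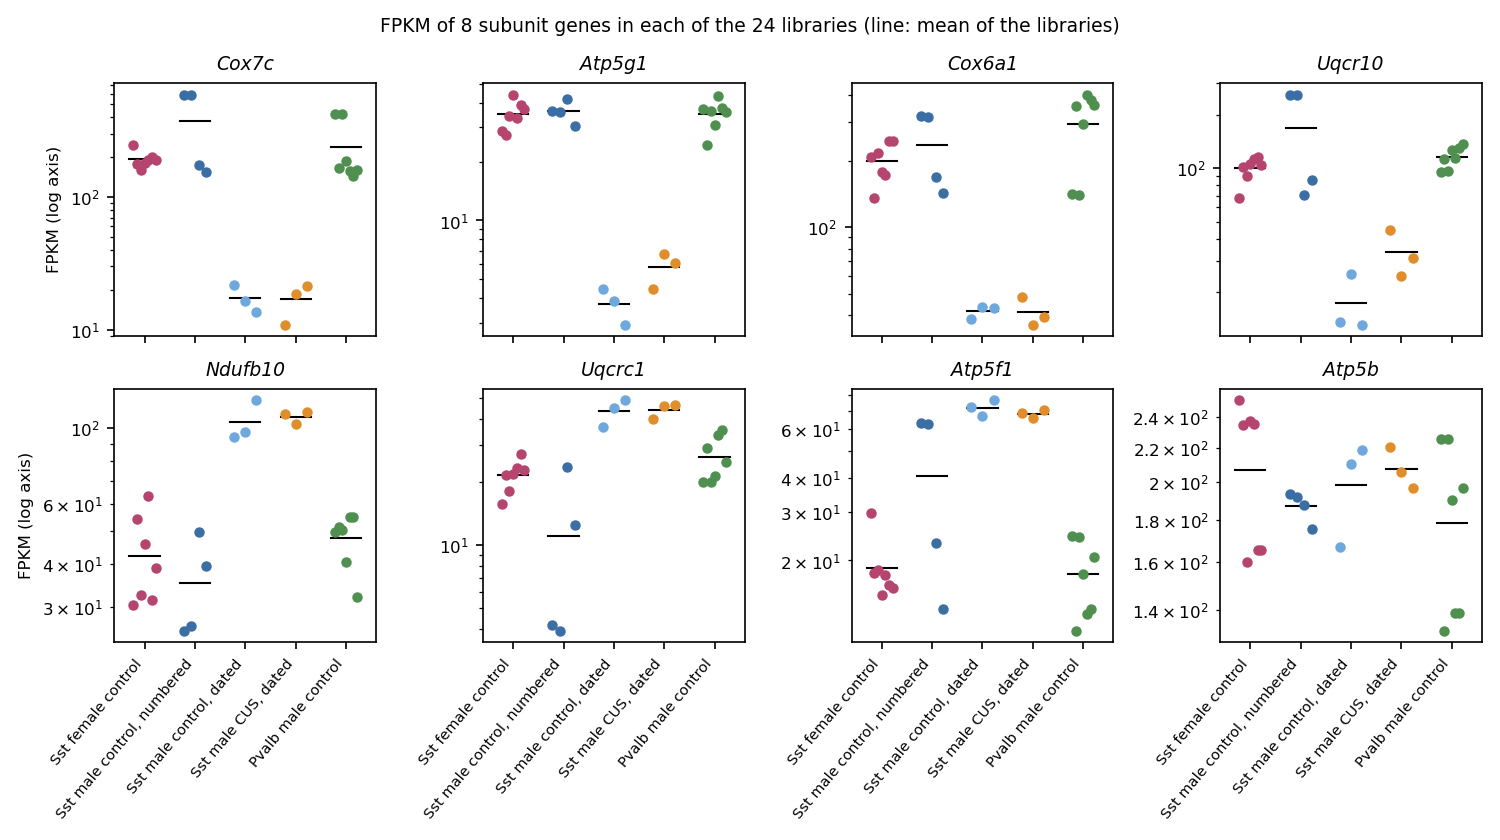
FPKM on a log axis of 8 members in each of the 24 libraries, with a line at the mean of the libraries of a group. Cox7c, Atp5g1, Cox6a1 and Uqcr10 lie lower in all 6 dated libraries than in the 18 numbered ones, Ndufb10, Uqcrc1 and Atp5f1 lie higher, and Atp5b overlaps.

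As a group, the members spread widely in this comparison. Their differences had a median of -0.65 and an SD of 1.24, against -0.00 and 1.04 over all genes, with medians of -0.25 in complex I, -1.02 in complex II, -0.70 in complex III, -1.08 in complex IV and -0.84 in complex V. Unadjusted p-values were below 0.05 for 40 members, against 23.6% of all genes. Groups did not overlap for 8 members that were higher and 35 that were lower, against 33.5% of all genes (16.4% higher, 17% lower). Of 8 neuronal markers 6 had a negative difference, and 1 of these, Snap25, passed the threshold. The 8 summed to 45.2 to 81.7 FPKM in dated and 104 to 158 FPKM in numbered controls, with none at 0. The part of neurons in the members' differences was not tested. The number of calls turned on single samples: it was 1 (Atp5g1) without SS04031R, without SST040241L or without SST04241LL, beside 1.05%, 0.381% and 0.402% of all genes. It was 2 without SST3-M (0.536% of all genes), 5 without SST4-M (0.976%) and 23 without the averaged SST0-M and SST1-M (13.7%), of which 5 were higher. Atp5g1 was called in each of these. The kind of title, the share of small nucleolar RNA and whatever else set the dated libraries apart cannot be told apart here.

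The same split held beyond the controls. Over all 24 libraries, 21 of the 83 members with a mean above 0.4 FPKM were lower in each of the 6 dated libraries than in any of the 18 numbered ones (25.3%), and 4 were higher in each (4.82%), namely Atp5f1, Ndufb10, Ndufv3 and Uqcrc1. Of all 14550 such genes, 6.22% were lower in this way and 6.54% were higher. The CUS libraries carried the same low values as the dated controls, with Cox7c at 10.9, 18.4 and 21.4 FPKM and Atp5g1 at 4.46, 6.71 and 6.07 FPKM.

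**Figure D5:**
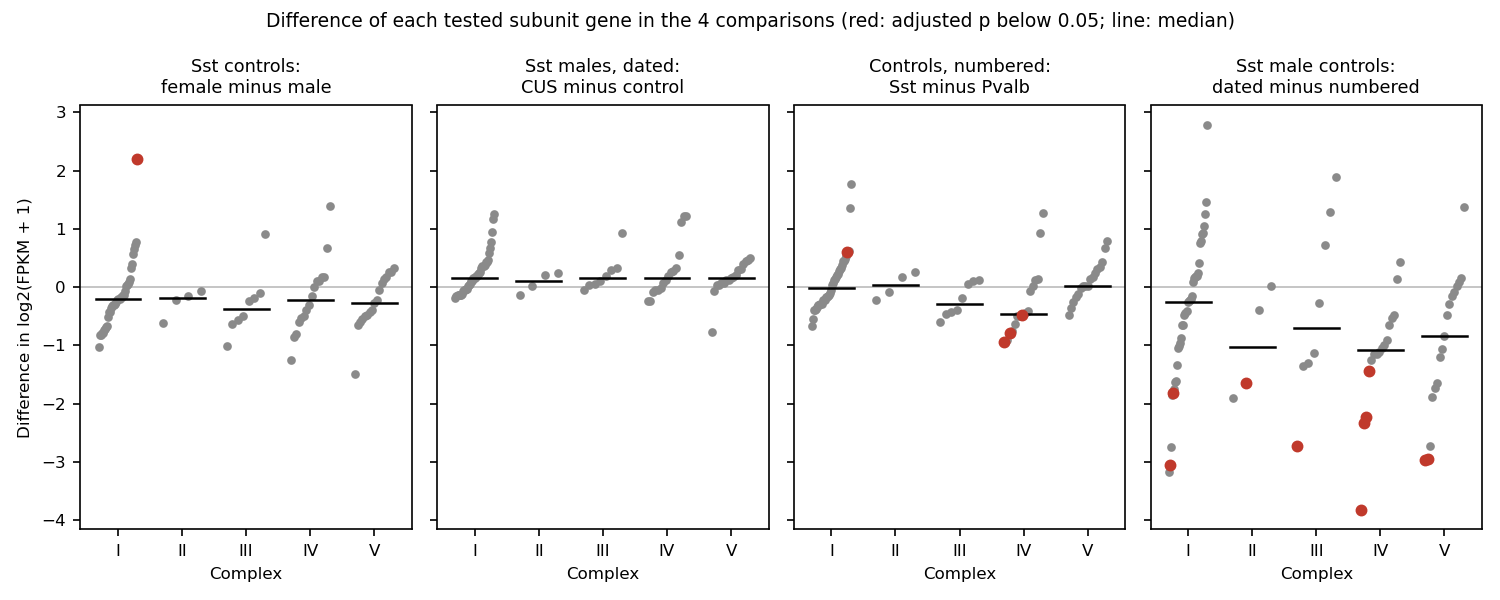
Difference in log2(FPKM + 1) of each tested member in the 4 comparisons, by complex, with a line at the median of the complex and members past an adjusted p of 0.05 in red. Called members number 1 for sex, 0 for CUS, 4 for Sst against Pvalb and 10 for dated against numbered titles, and only the last panel has complexes whose medians lie below -0.50.

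Most members have short transcripts, and transcript length moved in part with this split. Their longest annotated transcript had a median of 861 bases, 614.5 in complex IV, against 3038 bases over the genes tested that had a length (GENCODE M1, assembly NCBIM37). Among genes that are no members, the median difference between dated and numbered controls was -0.29 for 78 genes under 500 bases, -0.49 for 625 genes of 500 to 1000 bases, -0.08 for 1000 to 2000 bases, and 0.06 and 0.05 in the classes above. For members it was -1.23 for the 8 under 500 bases, -0.75 for the 40 of 500 to 1000 bases, -0.26 for the 24 of 1000 to 2000 bases and -0.08 for the 9 of 2000 to 4000 bases, but -1.96 for the 2 of 4000 bases or more. Those 2 were Atp5g1 (4715 bases) and Ndufb2 (4371 bases). The transcript length used for Atp5g1 exceeds its RefSeq gene, chr11:96072793-96075694, so its length class is uncertain. The part of length in the members' differences was not tested.

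Other genes of the pathway were read from 4 lists. Of 46 respiratory chain assembly factors, 41 were tested for sex and between Sst and Pvalb and 42 in the other comparisons. None was called for sex, CUS or Sst against Pvalb. Between dated and numbered controls 1 was higher and 2 were lower, beside 4.11% of all genes called. The higher one was Pet117, a complex IV assembly factor. It was listed at 0 in all 18 numbered libraries and at 13.1, 8.67 and 30.4 FPKM in the dated controls. Values of 0 in a whole set of libraries can be failed estimates, so no fold change is read from them. The lower ones were Cox16 (-1.95, adjusted p = 0.0264, limma) and Coa5 (-1.72, adjusted p = 0.0301, limma), which also serve complex IV assembly. The largest differences of the list for sex were those of Ndufaf2 (1.34) and Ecsit (1.25), both complex I assembly factors, and neither passed. The same holds for Nubpl (-0.64) and Sdhaf1 (0.45) after CUS and for Cmc1 (1.29) and Cox20 (0.96) between Sst and Pvalb.

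Of 12 regulators of mitochondrial biogenesis none was called for sex, for CUS or between dated and numbered controls. Between Sst and Pvalb 3 were lower in Sst, beside 10.2% of all genes called (5.34% lower). They were Pprc1 (-0.84, adjusted p = 0.0111, limma) and Ppargc1b (-0.77, adjusted p = 0.0180, limma), coactivators of the PGC-1 family, and Tfb2m (-0.66, adjusted p = 0.0220, limma), a mitochondrial transcription factor. Pprc1 was 9.12 ± 2.13 FPKM in Sst (SD, n = 10) and 17.4 ± 4.89 FPKM in Pvalb (SD, n = 6). Ppargc1b was low, with means of 0.503 FPKM in Sst females, 0.599 in numbered Sst males and 1.55 in Pvalb. Ppargc1a, of the same family, was not called. Its means were 31.6 FPKM in Sst females, 24.6 in numbered Sst males and 28.6 in Pvalb. Of the 12 regulators 5 had a positive and 7 a negative difference, with a median of -0.10. How the calls of list genes between Sst and Pvalb moved when samples were left out is not given here. Of 13 enzymes of the citric acid cycle, Fh1, fumarate hydratase, was higher in Sst (0.61, adjusted p = 0.0470, limma), and none was called in the other comparisons, where the largest differences were those of Suclg1 (1.11) for sex, Suclg2 (-0.38) for CUS and Suclg1 (1.78) between dated and numbered controls.

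Of 9 further chain components, Cycs, which encodes somatic cytochrome c, was higher in Sst, with 14.9 ± 2.20 FPKM (SD, n = 10) against 8.36 ± 2.97 FPKM in Pvalb (SD, n = 6) and a difference of 0.81 (adjusted p = 0.00942, limma). Its partner Cyc1, cytochrome c1 of complex III, was lower in the dated than in the numbered male controls, with 16.9 ± 6.60 against 65.0 ± 15.7 FPKM (SD, n = 3 each) and a difference of -1.93 (adjusted p = 0.0365, limma). No gene of this list was called for sex or CUS, where the largest differences were those of Etfa (1.28) for sex and Cyc1 (0.47) for CUS.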

How the data were processed

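The authors deposited 1 table of FPKM per gene, with 1 column for each of 24 libraries; the values sum to 276023 to 1311420 per library, and the table holds no read counts, so the depth behind each value is not known; the methods give 1 range of reads for all samples. Per the labels, TopHat2, Cufflinks and Cuffdiff with mm10 were used; the methods also name HISAT2 and StringTie, batch correction with ComBat and removal of outliers, and whether the deposited FPKM had been corrected is not given in the sources used here. Columns were matched to labels by title. Members and gene lists were chosen with earlier results of these data known, so nothing here is independent support for them.

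A pair of libraries in a group was averaged where its SD of log2 ratio, taken on genes that exceeded 5 FPKM in each, came to less than 10% of the value for the next pair. For each comparison limma 3.58.1 (R 4.3.3) was run, two-sided, on log2(FPKM + 1) of every gene whose mean exceeded 0.4 FPKM, with trend and robust variance and a 0.05 limit on p adjusted after Benjamini-Hochberg. Fold changes on this scale understate those of low genes. The labels do not say that libraries came from separate animals, so p-values measure the spread between libraries. The 4 comparisons share samples and are not independent. Since FPKM are relative values, less RNA of a kind per cell and fewer cells of a type cannot be told apart. The upper quartile was 9.50 to 10.65 FPKM in all 24 libraries, whereas their sums differed widely. What the values were scaled to is not given in the sources used here. The test was checked on simulated data.

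Members named in the text were, in each complex, the 3 with the highest mean and any at 0 throughout; in each comparison, the 5 largest differences in each direction and up to 10 calls; the isoform families; the Sdh genes; and, from the pathway lists, the largest differences in a comparison. Called list genes, Ppargc1a, members called only under an alternative, members on chromosome X, Ndufv3, Ndufb4, Ndufb2 and members holding promoter motifs were named after their values were seen. Promoters come from RefSeq (GRCm38.p6). Alternatives to the filter, pseudocount, scaling and samples were tried. Python 3.11.15, numpy 2.4.6, pandas 2.3.3 and matplotlib 3.10.9 were used. The result of 1 marker gene is not reported here.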

Additional observations from a re-analysis of the deposited data

Results flagged for a closer look

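Within groups of 4 to 10 samples, the summed FPKM of the members and of each complex and the level of each leading member and Sdh gene were searched for a sample far from the others, 44 sets of values in all; chance flags about 1 in 20. Atp5a1 was 190 FPKM in the averaged PV0-M and PV2-M, and the next highest of the 6 Pvalb samples was 115 FPKM. Sdhb was 19.9 FPKM in SST-F, and the next lowest of the 7 Sst female samples was 25.4 FPKM.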

How the results depend on the processing

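The numbers of members called moved with the samples and with the model. For sex (1 call), quantile normalization and scaling to the same sum gave 2, 1 fit over all samples 4, every library on its own 11, all male controls 6 and dated male controls 46 (37 higher, 9 lower, beside 41.5% of all genes), and leaving out 1 sample gave 0 to 4. For CUS (0 calls), numbered male controls gave 17 and every other alternative, each library left out included, 0. For Sst against Pvalb (4 calls), numbered Sst males gave 0, Sst females 15, leaving out PV1-M, PV4-M and PV5-M 0, leaving out both averaged pairs, chosen after seeing the data, 35 (9 higher, 26 lower, beside 30.6% of all genes), and leaving out 1 sample 1 to 12. For dated against numbered titles (10 calls), no filter gave 6, 1 fit over all samples 39, every library on its own 20, and leaving out 1 sample 1 to 23. Genes called moved likewise: for sex from 493 to 1232, 2549, 1699 and 6032 under 1 fit, every library, all males and dated males, 11 and 24 under the numbered subset with and without the block, and 100 to 1787 with 1 sample left out; for CUS from 1 to 2309 with numbered males, 6 with controls of both sexes, 3 under 1 fit and 1 to 16 with 1 library left out; for Sst against Pvalb from 1478 to 13, 3638, 9 and 4431 for males only, females only, without 3 Pvalb libraries and without both pairs, and 554 to 2883 with 1 sample left out; for titles from 585 to 381 without the filter, 1110 after quantile normalization, 3608 under 1 fit, 1769 with every library and 54 to 1962 with 1 sample left out. The causes were not tested. No named difference that was called changed direction. A replicate block over title numbers 1, 3 and 4 gave 0 calls for sex, and the same samples without the block, chosen after seeing the data, also 0; a replicate block gave 4 for Sst against Pvalb, 2 of them shared with the fit without it. Deviations of same-numbered female and male samples had correlations of -0.0157, -0.0402 and -0.0151, beside -0.0127 to 0.0364 for differently numbered ones. No shared deviation by number was thus seen, but such a check cannot exclude that the numbers pair libraries. No paired analysis was possible for the other comparisons because no number is shared by 2 pairs of their libraries; the digits that SS04031R shares with all 3 CUS libraries would leave 1 control. FPKM without counts set no detection limit that could be given.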

Other observations

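Within groups the members fell into sets of libraries that the labels do not name. Among Sst females, Atp5b was 234, 237 and 236 FPKM in the libraries SST1-F, SST3-F, SST4-F, 160, 166 and 165 FPKM in SST2-F, SST5-F and SST6-F, and 251 FPKM in SST-F. Ndufs5 was under 0.01 FPKM in SST-F, SST1-F, SST3-F and SST4-F, against 8.66 to 15.2 FPKM in the other 3. Among Pvalb libraries, the SD of the log2 difference over the members was 0.262 to 0.347 within PV1-M, PV4-M and PV5-M, 0.339 between PV3-M and PV6-M, 0.639 to 0.738 between these sets, and 1.09 to 1.18 from either to PV0-M and PV2-M. Among numbered Sst males it was 0.513 between SST3-M and SST4-M and 1.46 to 1.52 from these to SST0-M and SST1-M, and from SST0-M and SST1-M to the Pvalb libraries it was 1.45 to 1.56. These sets were seen in the values and were not tested.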
